A study of Rattus norvegicus with 38 samples.

Results

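The genes described here are 10 components of the cardiac sarcomere: the troponin subunits Tnnt2, Tnni3 and Tnnc1, the ventricular myosin light chains Myl2 and Myl3, and the scaffold and filament proteins Mybpc3, Ttn, Tpm1, Actn2 and Tcap. The genes were chosen with earlier results of these data known. Their probesets were taken by name, as every probeset annotated to these symbols on the heart array. This gave 17 of 15866 probesets and 10 of the 10411 genes with a probeset of a single symbol. Tpm1 had 6 probesets, Tnnt2 and Myl2 had 2 each, and the other 7 genes had 1. Where a gene had several, it is represented by the brightest over the 18 hearts.

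Acute cardiac rejection was studied in rats on post-transplant day 6, after a Dark Agouti (DA) heart had been placed in the abdomen of a DA recipient (isograft) or a Brown Norway (BN) recipient (allograft). The hearts measured were 5 allografts, the 5 native BN hearts of the same allograft recipients, 4 isografts and the 4 native DA hearts of the same isograft recipients. All grafts were therefore DA hearts, they lay in the abdomen while the native heart stayed in place, and no native heart came from an animal without a graft. Pieces held both ventricles and the septum, so each value is an average over all cells of the tissue. Hearts are named A3 to A7 for the allograft recipients and I9, I11, I12 and I13 for the isograft recipients. Values are signals divided by the median signal of the same array, here called array medians, and fold changes compare group means on the log2 scale. A probeset passed the test at an adjusted p of at most 0.10 (limma, Benjamini-Hochberg over all 15866 probesets), and was called at 3-fold if it also changed by that much or more and if 50% or more of the hearts of either group reached the array median.

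In the sarcomere, myosin heads on the thick filament pull on actin in the thin filament. Troponin sits on the thin filament with tropomyosin: Tnnc1 binds calcium, Tnni3 holds the filament off in its absence, and Tnnt2 ties the complex to tropomyosin. Myl2 and Myl3 are the regulatory and essential light chains at the neck of ventricular myosin, Mybpc3 (cardiac myosin binding protein C) bridges thick and thin filaments, titin (Ttn) is the spring that spans from Z disc to M band, alpha-actinin-2 (Actn2) cross-links actin at the Z disc, and telethonin (Tcap) caps the end of titin there. Troponin T and I released into blood are the standard markers of heart muscle injury.

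Stretches of DNA just before the RefSeq transcript starts are shown for 4 members, chosen to hold the troponin with the largest fold change in allografts (Tnni3), both promoters with a MEF2 match (Mybpc3 and Ttn) and the promoter with a CArG box (Myl3). RefSeq promoters of the rat assembly GRCr8 were matched for Tnnt2, Tnni3, Myl3, Mybpc3, Ttn, Tpm1 and Actn2, 7 of the 10 members. Each stretch is the 250 bases before the start, read 5′ to 3′ along the gene. Capitals mark matches, on both strands, to the binding motif of MEF2, the CArG box, GATA, or M-CAT (CATTCC). The Tnni3 stretch lies at chr1:78342321-78342570 (plus strand), that of Mybpc3 at chr3:97550811-97551060 (plus strand), that of Ttn at chr3:82332111-82332360 (minus strand) and that of Myl3 at chr8:119616844-119617093 (plus strand).
Tnni3: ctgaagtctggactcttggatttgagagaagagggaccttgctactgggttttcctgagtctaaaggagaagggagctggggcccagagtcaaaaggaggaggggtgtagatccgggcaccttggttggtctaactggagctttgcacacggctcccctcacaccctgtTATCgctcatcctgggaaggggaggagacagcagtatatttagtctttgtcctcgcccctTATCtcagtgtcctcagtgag
Mybpc3: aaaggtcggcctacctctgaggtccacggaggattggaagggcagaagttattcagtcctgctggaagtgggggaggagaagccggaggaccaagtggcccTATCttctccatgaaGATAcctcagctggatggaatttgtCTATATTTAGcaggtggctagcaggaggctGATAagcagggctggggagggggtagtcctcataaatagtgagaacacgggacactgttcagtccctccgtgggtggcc
Ttn: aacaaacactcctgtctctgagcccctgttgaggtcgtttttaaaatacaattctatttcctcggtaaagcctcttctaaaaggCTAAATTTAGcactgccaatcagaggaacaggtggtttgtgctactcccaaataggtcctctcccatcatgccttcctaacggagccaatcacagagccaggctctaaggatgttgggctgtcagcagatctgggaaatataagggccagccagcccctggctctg
Myl3: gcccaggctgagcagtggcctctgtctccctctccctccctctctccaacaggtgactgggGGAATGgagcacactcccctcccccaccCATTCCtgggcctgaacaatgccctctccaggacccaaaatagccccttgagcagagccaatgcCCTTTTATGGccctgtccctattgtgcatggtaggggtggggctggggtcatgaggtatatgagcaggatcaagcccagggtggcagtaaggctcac

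A MEF2 match was present in 2 of the 7 promoters, those of Mybpc3 and Ttn, and in 3.07% of all 27457 rat promoters of this length. The CArG box was matched in Myl3 alone of the 7, against 1.5% of all promoters. M-CAT was matched in 3 (Tnnt2, Myl3 and Tpm1), against 11.8%, and GATA in 5 (Tnnt2, Tnni3, Mybpc3, Tpm1 and Actn2), against 55.1%. These matches describe letters in a window and were not set against the expression values.

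The rejection effect, allografts against isografts, compares DA hearts that differ in the strain of the recipient. All 10 genes were lower in allografts at the adjusted threshold, where 21.2% of all probesets were lower. Their median log2 fold change was -1.90, against 0.02 over all probesets. At 3-fold, 7 of the 10 were called, against 5.05% of probesets: Mybpc3 (7.96-fold lower), Tnni3 (7.10), Actn2 (6.04), Ttn (5.63), Myl3 (3.88), Tcap (3.58) and Myl2 (3.09). Tnnc1 was 2.64-fold, Tnnt2 2.42-fold and Tpm1 1.68-fold lower. In 9 genes no allograft reached any isograft, which held for 15.9% of all probesets in this direction, and Tpm1 was the exception. A smaller share of heart muscle cells in the RNA of the tissue and less of these RNAs in each cell cannot be told apart in such samples. Without allografts A5 and A6, which had the lowest values, all 10 stayed lower and 5 were called at 3-fold.

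**Figure D1:**
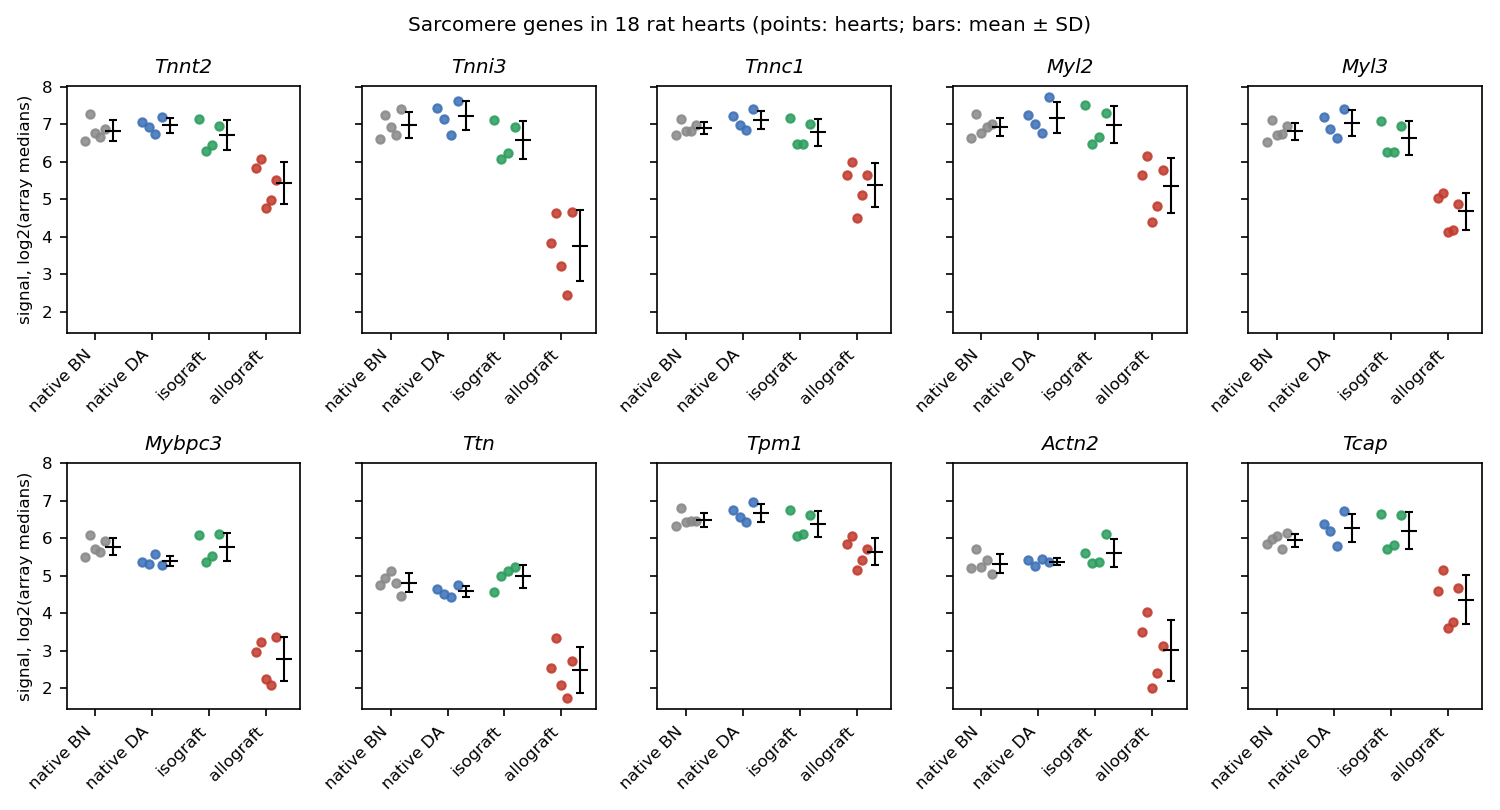
Signal of the representative probeset of each member in each of the 18 hearts, as log2 of array medians on the vertical axis, by group on the horizontal axis; points are hearts, and bars give the mean and SD of the group. Native BN, native DA and isograft hearts overlap in all 10 panels, and the allografts lie below the isografts without overlap in 9 of 10.

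Among the troponins the inhibitory subunit had the largest fold change. Tnni3 measured 14.2, 24.9, 9.36, 5.45 and 25.1 array medians in allografts A3 to A7, and 139, 66.7, 75.4 and 121 in isografts I9, I11, I12 and I13. The native DA hearts in the same order measured 173, 142, 105 and 198, and the native BN hearts of A3 to A7 measured 97.9, 151, 123, 104 and 169. All 5 allografts lay far below every other heart, while isograft and native values overlapped. The log2 fold change between allografts and isografts was -2.83 (SE 0.39, adjusted p = 2.27e-05).

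Tnnt2 measured 57.1, 67.4, 26.9, 31.4 and 45.9 array medians in allografts A3 to A7 and 141, 77.7, 87.6 and 123 in the isografts. The highest allograft lay just below the lowest isograft, and the log2 fold change was -1.27 (SE 0.26, adjusted p = 0.000937). Tnnc1 ran from 22.7 to 63.4 in allografts and from 89.3 to 144 in isografts, with a log2 fold change of -1.40 (SE 0.25, adjusted p = 0.000297). The representative probesets of the troponin subunits therefore moved by unequal amounts on the same arrays. In isograft and native hearts they lay at or above the 99.7th percentile of the array. Whether signals this bright are compressed to different degrees was not tested. The difference between Tnni3 and Tnnt2 within a heart, on the log2 scale, lay between -2.52 and -0.87 in allografts, between -0.22 and -0.02 in isografts, and between -0.02 and 0.52 in the 9 native hearts. The allografts did not overlap the other hearts in this difference, which was chosen after its values were seen and carries no test. A second Tnnt2 probeset, 1390061_at, was dim in every heart (0.0754 to 0.717 array medians) and had a log2 fold change of 0.54 (adjusted p = 0.484). Averaging both probesets took Tnnt2 to a log2 fold change of -0.37 (adjusted p = 0.373).

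Both ventricular light chains fell. Myl2 measured 50.3, 71.5, 21.1, 28.4 and 55.1 array medians in allografts A3 to A7, against 181, 89.6, 101 and 158 in isografts (log2 fold change -1.62, SE 0.33, adjusted p = 0.000798). Myl3 measured 32.9, 36.0, 17.3, 17.99 and 29.4 in the same allografts, against 135, 76.2, 75.9 and 124 in isografts (log2 fold change -1.96, SE 0.26, adjusted p = 1.41e-05). Neither chain overlapped between these groups. A second Myl2 probeset, 1388293_at, ran from 0.533 to 1.56 array medians over the 18 hearts and did not pass the test (log2 fold change -0.13, adjusted p = 0.719).

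Myosin binding protein C, titin and alpha-actinin-2 were each more than 5-fold lower. Mybpc3 measured 7.77, 9.44, 4.78, 4.20 and 10.3 array medians in allografts A3 to A7, and 67.9, 41.3, 45.9 and 68.7 in the isografts. Its log2 fold change was -2.99 (SE 0.25, adjusted p = 1.50e-07). The highest allograft lay far below the lowest isograft, and the native hearts, from 39.2 to 67.9, covered nearly the same range as the isografts. Ttn measured 5.81, 10.1, 4.28, 3.34 and 6.63 in allografts and 23.7, 31.6, 35.2 and 37.9 in isografts (log2 fold change -2.49, SE 0.25, adjusted p = 9.62e-07). Actn2 measured 11.3, 16.2, 4.03, 5.25 and 8.68 in allografts and 48.7, 40.3, 40.9 and 69.5 in isografts (log2 fold change -2.59, SE 0.32, adjusted p = 6.09e-06). Each of these genes kept its allografts apart from all 13 other hearts. Tcap, the titin cap, ran from 12.2 to 35.8 in allografts and from 52.6 to 99.4 in isografts (log2 fold change -1.84, SE 0.30, adjusted p = 0.000124).

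Tpm1, the alpha-tropomyosin gene that is spliced differently in striated muscle, smooth muscle and other cells, gave unlike answers on its 6 probesets. The brightest, 1371241_x_at, measured 57.0, 66.8, 35.2, 42.8 and 52.9 array medians in allografts A3 to A7 and 108, 66.8, 69.5 and 98.0 in the isografts. Allograft A4 and isograft I11 were level, and the log2 fold change was -0.75 (SE 0.20, adjusted p = 0.0076). The suffix of this probeset marks probes that can also bind related sequences. Probeset 1368724_a_at was 2.01-fold lower (adjusted p = 0.0012) and 1370288_a_at 3.13-fold lower (adjusted p = 0.00022), both without overlap. A further probeset, 1370287_a_at, ran from 2.03 to 2.86 in allografts and from 2.16 to 3.78 in isografts and did not pass (log2 fold change -0.20, adjusted p = 0.442). Probesets 1371240_at and 1370513_at stayed below the array median in every heart and did not pass in this comparison. Over the 17 probesets, 12 were lower and none was higher.

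**Figure D2:**
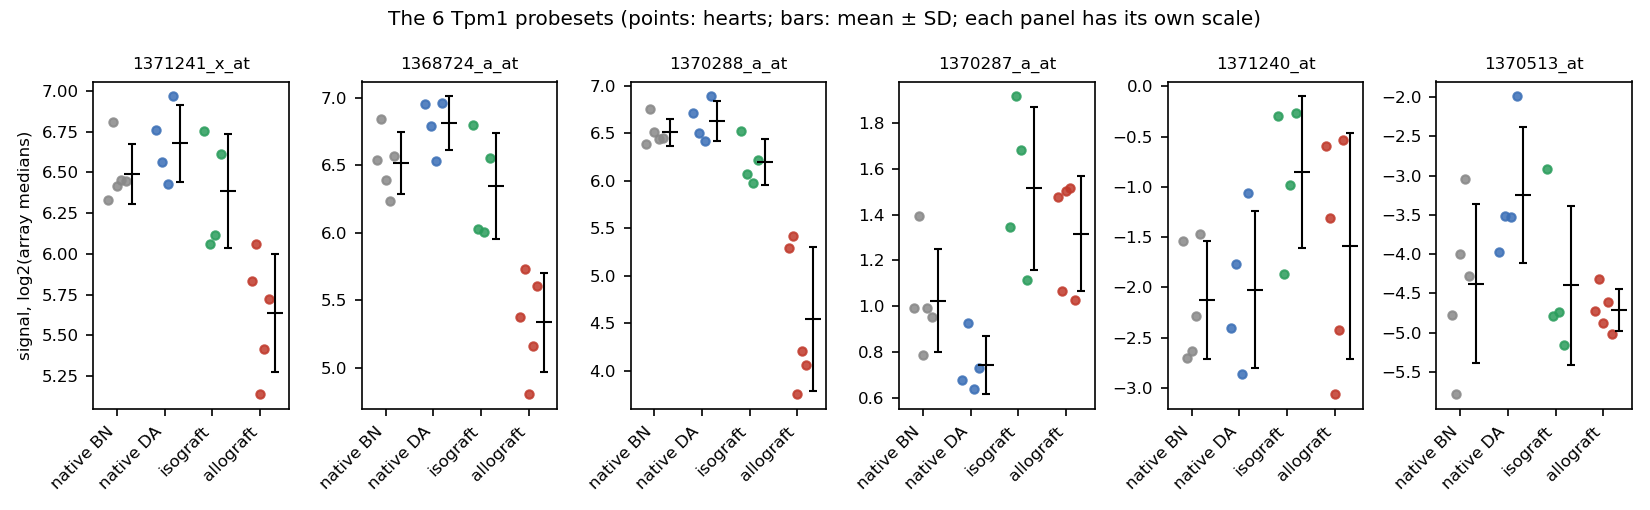
Signal of the 6 Tpm1 probesets, as log2 of array medians on the vertical axis (each panel with its own scale), in native BN, native DA, isograft and allograft hearts; points are hearts and bars the mean and SD. Probesets 1371241_x_at, 1368724_a_at and 1370288_a_at are lowest in allografts, whereas 1370287_a_at is higher in isografts than in native DA hearts and does not separate allografts from isografts.

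The surgical effect, isografts against native DA hearts, asks what transplantation did without rejection. None of the 10 genes passed, where 6.59% of probesets were lower and 7.15% higher. The median log2 fold change was -0.23, against -0.08 over all probesets, and the genes ran from -0.65 to 0.40. Tnni3 had the lowest value (-0.65, 95% confidence interval -1.52 to 0.23, adjusted p = 0.354), and Ttn (0.40, -0.17 to 0.97, adjusted p = 0.382) and Mybpc3 (0.38, -0.19 to 0.95, adjusted p = 0.405) the highest. The intervals of the 10 genes together reached from -1.52 to 0.97. With quantile normalization the median of the members moved to 0.13, and none passed.

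Of the Tpm1 probesets, 1370287_a_at was 1.71-fold higher in isografts (log2 fold change 0.77, SE 0.19, adjusted p = 0.0238). It measured 2.54, 3.78, 3.21 and 2.16 array medians in isografts I9, I11, I12 and I13, and 1.60, 1.90, 1.56 and 1.66 in the native DA hearts of the same animals. Every isograft was above every native DA heart, which held for 8.68% of probesets in this direction. No other member probeset passed in this comparison. Of 22 other heart muscle genes, 4 were lower in isografts (18.2%, against 6.59% of all probesets) and 1 was higher. Their summed signal ran from 732 to 1260 array medians in isografts and from 1043 to 1547 in native DA hearts. Fibroblast and matrix markers moved in the same samples: 7 of 12 were higher in isografts and none lower, and their summed signal ran from 262 to 322 array medians against 86.0 to 107 in native DA hearts. Leukocyte markers were higher in 10 of 19, with sums of 112 to 146 against 72.6 to 89.5. Smooth muscle and pericyte markers were higher in 1 of 9. The part of these cells in the Tpm1 signal was not tested.

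The strain effect, native BN against native DA hearts, found none of the 10 genes past the threshold, where 1.46% of probesets were lower and 1.48% higher. Log2 fold changes ran from -0.33 (Tcap, 95% confidence interval -0.97 to 0.31) to 0.39 (Mybpc3, -0.15 to 0.92). All 17 member probesets failed the test, with adjusted p of at least 0.354. Strain and the kind of graft the animal carried cannot be told apart here. In the order of group means, allografts came last for every gene. Native DA hearts came first for the troponins, the light chains, Tpm1 and Tcap, and native BN hearts or isografts for Mybpc3, Ttn and Actn2. Neither group differed from native DA hearts beyond the spread between hearts in any of the 10 genes, and isografts were not tested against native BN hearts.

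**Figure D3:**
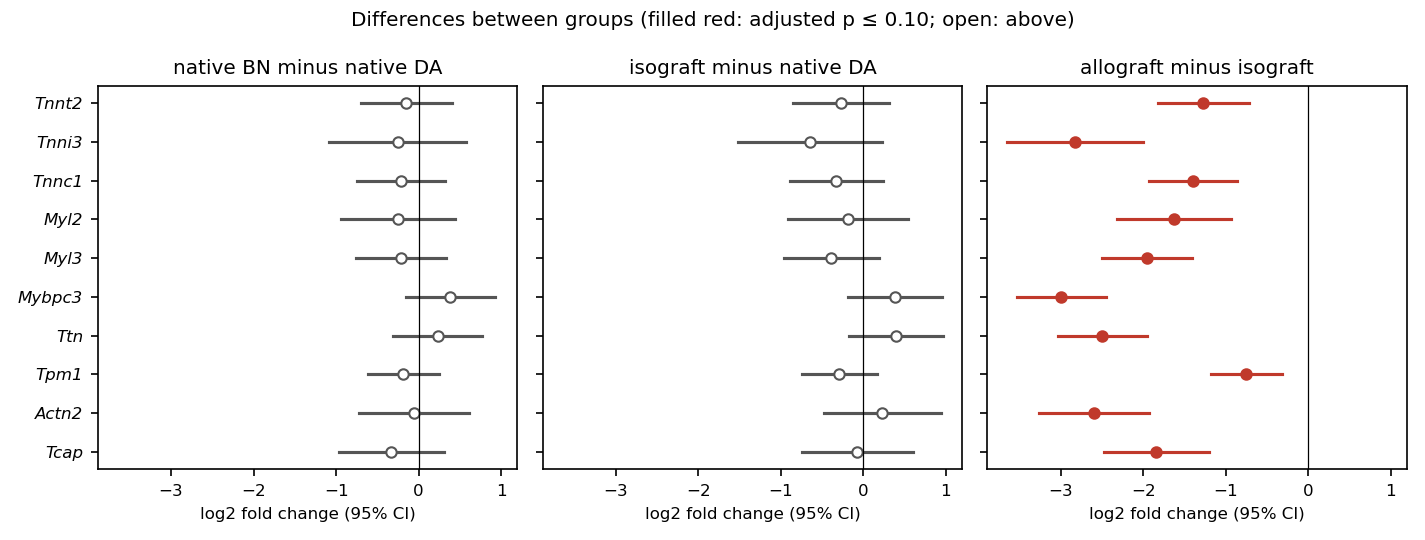
Log2 fold change of each member (horizontal axis) with its 95% confidence interval, for native BN minus native DA, isograft minus native DA and allograft minus isograft hearts; filled red points passed the test and open points did not. All 10 genes lie below 0 in the right panel, from -2.99 (Mybpc3) to -0.75 (Tpm1), and every interval in the left and middle panels crosses 0.

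Each graft shared its animal with a native heart, which allows a comparison inside the recipient, although in allograft recipients the graft and the native heart also differ in strain. Allografts against native BN hearts gave all 10 genes lower, where 26.3% of probesets were lower, and in all 10 the groups did not overlap, against 17% of probesets. At 3-fold 5 genes were called, against 5.67%: Tnni3 (9.33-fold lower), Mybpc3 (7.99), Ttn (5.02), Actn2 (4.97) and Myl3 (4.39). Tcap at 2.99-fold and Myl2 at 2.96-fold lay just under that limit, and without allograft A4 the count was 8. Animal by animal, the allograft held less than the native heart for every gene in all 5 recipients. Mybpc3 in the graft was 17.1%, 13.9%, 9.05%, 8.54% and 16.8% of its level in the native heart of recipients A3 to A7. Tnni3 was 14.5%, 16.4%, 7.64%, 5.24% and 14.9%. Tpm1 by its representative probeset had the highest share of the 10 genes in every recipient, from 41.2% to 70.6%. This depends on the probeset, as Tpm1 probeset 1370288_a_at was 3.90-fold lower in allografts than in native BN hearts and was called at 3-fold.

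In isograft recipients the members did not all lie on the same side of the native level, and differences between genes were not tested. Tnni3 in the graft was 80.0%, 47.2%, 71.8% and 61.4% of the native level in I9, I11, I12 and I13, lower in all 4 animals, as were Tnnc1 (70.4% to 97.6%), Myl3 (65.4% to 91.9%) and Tpm1 (70.6% to 99.5%). Mybpc3 was 164%, 105%, 95.9% and 175%, Ttn 94.1%, 138%, 164% and 142%, and Actn2 113%, 106%, 93.5% and 169%. These 3 genes were above the native heart in 3 of 4 animals each. None of these isograft differences passed the test.

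The test of whether the within-recipient change differed between allograft and isograft recipients was lower for 9 of 10 genes, against 15.5% of probesets. It was called at 3-fold for 5, against 4.99%. Mybpc3 had a log2 difference of -3.38 (SE 0.36, adjusted p = 6.90e-06), Ttn -2.72, Tnni3 -2.58, Actn2 -2.54 and Myl3 -1.74. Tpm1 by its representative probeset did not pass (-0.57, SE 0.29, adjusted p = 0.18), except with quantile normalization (adjusted p = 0.00332) and with the array software's scaling alone (adjusted p = 0.0819). Its probeset 1370288_a_at did pass (-1.53, adjusted p = 0.0109), and the remaining Tpm1 probesets did not. Without allografts A5 and A6 the count was 7, as Tnnt2 (adjusted p = 0.11) and Myl2 (adjusted p = 0.113) no longer passed. The rejection effect, the surgical effect and this test share the isografts, and the comparison with native BN hearts shares the allografts with the rejection effect and this test.

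The 5 allografts ranked alike over the members. A5 and A6 held the lowest values for all 10 genes, A5 the lowest for 7 and A6 for 3 (Tnni3, Mybpc3 and Ttn). A4 was highest for 8 genes and A7 for Tnni3 and Mybpc3. The geometric mean of the 10 members was 23.3, 31.7, 12.2, 12.9 and 24.4 array medians in A3 to A7, against 59.8 to 95.8 in isografts and 67.1 to 99.9 in native hearts. A5 and A6 also had the lowest sums of the other heart muscle genes among allografts, 169 and 173 array medians against 304 to 430 in the other allografts. Their leukocyte marker sums were 409 and 499, the lowest of the 5. The leukocyte sum of A7 lay close to that of A6, at 508, and a relation between sarcomere and leukocyte signal was not tested.

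All 19 measured leukocyte markers of 20 listed were higher in allografts, where 20.3% of all probesets were higher, with sums of 409 to 705 array medians against 112 to 146 in isografts. Of 22 other heart muscle genes (of 23 listed, among them Fabp3, Ryr2, Atp2a2 and Pln), 19 were lower and none higher, with a median log2 fold change of -2.39 and sums of 169 to 430 against 732 to 1260. Of 12 fibroblast and matrix markers, 9 were lower and none higher (median log2 fold change -1.38), with sums of 43.0 to 295 in allografts and 262 to 322 in isografts. Against native BN hearts, 7 of these 12 were higher (58.3%, against 23.1% of all probesets) in allografts (median log2 fold change 0.96). In that comparison 3 were lower (25%, near the 26.3% of all probesets). Against isografts again, 5 of 9 smooth muscle and pericyte markers were lower and none higher (median -1.63). Of 9 endothelial markers, 4 were higher and 1 lower, with sums of 34.6 to 38.0 in allografts and 28.9 to 33.5 in isografts. The part of these cells in the lower sarcomere signal was not tested.

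**Figure D4:**
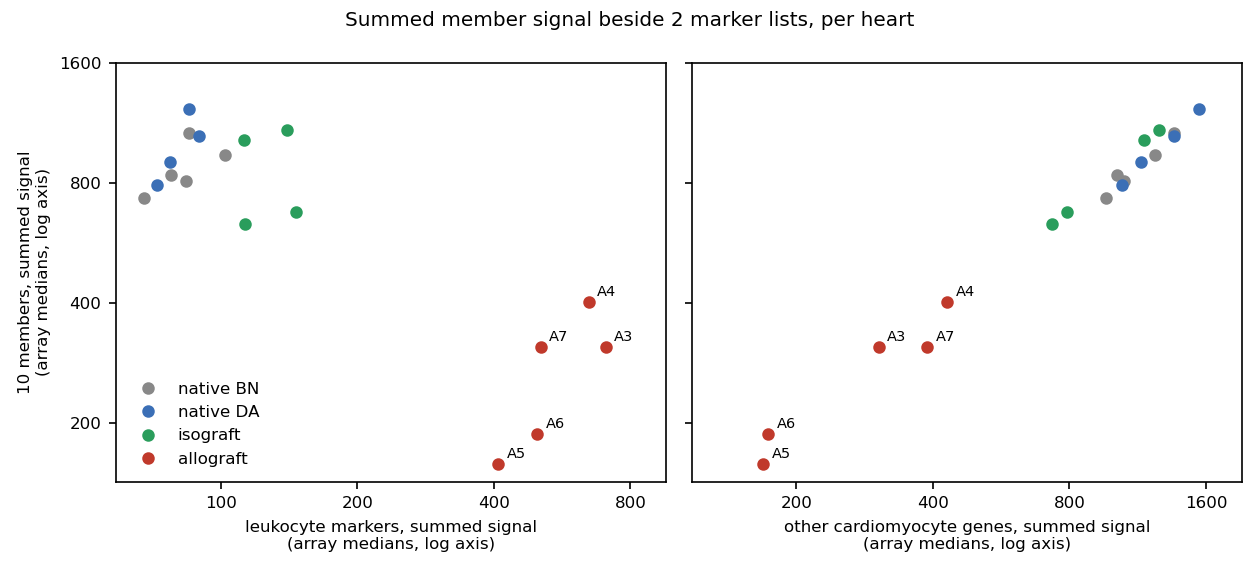
Summed signal of the 10 members in each heart (vertical axis, array medians, log scale) against the summed signal of 19 leukocyte markers (left) and of 22 other heart muscle genes (right), both in array medians on log axes, with the 5 allografts labelled; each point is 1 heart. Allografts combine member sums of 158 to 402 with leukocyte sums of 409 to 705, and A5 and A6 are lowest for both the members and the other heart muscle genes.

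The same 17 probesets were read on blood mononuclear cell (PBMC) arrays of 20 rats, a preparation without heart muscle. Of these, 5 were BN rats with an allograft, 9 were DA rats with an isograft, and 3 of each strain had no graft. These arrays were scaled separately, so levels are set side by side with no test. The representative Tnnt2 probeset ran from 0.0103 to 0.0666 array medians in PBMC against at least 26.9 in any heart, and Tnni3 from 0.0205 to 0.148 against at least 5.45. Mybpc3 came closest, with up to 2.28 in PBMC and at least 4.20 in hearts. Every representative probeset was brighter in its dimmest heart than in any PBMC sample. Tpm1 probeset 1370287_a_at differed from these, with 2.60 to 5.82 in PBMC and 1.56 to 3.78 in hearts. The dim probesets Tnnt2 1390061_at, Myl2 1388293_at and Tpm1 1370513_at also overlapped between PBMC and hearts.

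The rest of the sarcomere is given by lists chosen by function, whose counts stand beside 21.2% of all probesets lower and 20.3% higher in allografts than in isografts. Of 8 measured thick filament and M band genes, 7 were lower and 1 higher. Myh6, the fast alpha myosin heavy chain of the rodent ventricle, was 39.7-fold lower (log2 fold change -5.31, adjusted p = 1.51e-06), and the M band proteins Myom1 and Myom2 were 10.7-fold and 8.51-fold lower. Of 7 thin filament genes 4 were lower, among them Fhod3 (8.48-fold), a formin that helps build actin filaments, and Tmod1 (5.16-fold), the cap of the pointed end. Capzb, the cap of the barbed end, was 1.73-fold higher (adjusted p = 0.00101), and the skeletal actin gene Acta1 did not pass (log2 fold change -0.54, adjusted p = 0.132).

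Of 22 Z disc genes 19 were lower and none higher, led by Ldb3 (17.1-fold), Myoz2 (10.9-fold) and Nrap (9.18-fold). Of 12 genes of desmin and the costamere, which anchor the myofibril to the membrane, 9 were lower and none higher, led by the sarcoglycans Sgcb (5.84-fold) and Sgca (5.36-fold). Desmin itself (Des) did not pass (log2 fold change -0.31, adjusted p = 0.389). The medians of these 4 lists ran from -2.96 (thick filament and M band) to -1.07 (desmin and costamere), beside -1.90 for the 10 members and 0.02 for all probesets.

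Of 22 measured paralogs that other muscles or non-muscle cells use, 5 were lower (22.7%, near the 21.2% of all probesets) and 8 higher (36.4%, against 20.3%). Over all genes by their representative probeset, 23.2% were lower and 22.5% higher. Among the troponins, the slow skeletal Tnni1 was 1.63-fold lower (adjusted p = 0.0361), and Tnnt1, Tnnt3, Tnni2 and Tnnc2 did not pass (adjusted p from 0.244 to 0.787). Those that did not pass had an SE from 0.61 (Tnnc2) to 0.80 (Tnnt1), against 0.25 (Tnnc1) to 0.39 (Tnni3) for the cardiac troponins. Their changes were therefore measured less precisely. Among the tropomyosins, Tpm3 was 4.76-fold higher (log2 fold change 2.25, SE 0.15, adjusted p = 1.39e-08) and Tpm4 2.86-fold higher (adjusted p = 2.61e-06), while Tpm2 did not pass (log2 fold change -0.47, adjusted p = 0.296). Among the actinins, the non-muscle Actn1 was 2.48-fold and Actn4 1.53-fold higher, where Actn2 was 6.04-fold lower. The skeletal Actn3 was 2.66-fold higher (log2 fold change 1.41, SE 0.49, adjusted p = 0.0319). The atrial light chain Myl4 was 3.08-fold lower and the smooth muscle Myl9 2.40-fold lower. The 8 higher paralogs, the skeletal Actn3 among them, were higher in the same group as the leukocyte markers, and a link between them was not tested.

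In isografts against native DA hearts, where no member gene passed and 6.59% of all probesets were lower and 7.15% higher, some of these other genes did. None of the 8 thick filament and M band, 7 thin filament and 22 Z disc genes was lower, and 1, 1 and 4 of them were higher. Of 12 desmin and costamere genes 2 were lower and 1 higher, and of 22 paralogs 2 were lower and 5 higher. Acta1 was 6.99-fold higher (log2 fold change 2.80, adjusted p = 5.94e-05), Actn1 3.92-fold, the stretch-responsive Ankrd23 3.91-fold, Tpm2 2.95-fold, the filamin Flnc 2.61-fold, and the light chain Myl1 2.46-fold. The atrial light chain Myl7 was 1.92-fold lower (adjusted p = 0.0434), the skeletal Mybpc1 1.84-fold (adjusted p = 0.0805), Sgca 1.69-fold (adjusted p = 0.0502) and the dystrobrevin Dtna less so (log2 fold change -0.58, adjusted p = 0.061). Leaving out single hearts, the lower paralogs numbered 0 to 3 and the higher ones 3 to 8, and the lower desmin and costamere genes 0 to 2. Myh7, the slow beta myosin heavy chain, was 1.89-fold higher at an adjusted p of 0.091, a call lost in 13 of 18 fits that left out a single heart. Between the native hearts, Acta1 was 5.45-fold higher in BN (adjusted p = 9.70e-05), and the other thin filament genes did not pass there.

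**Figure D5:**
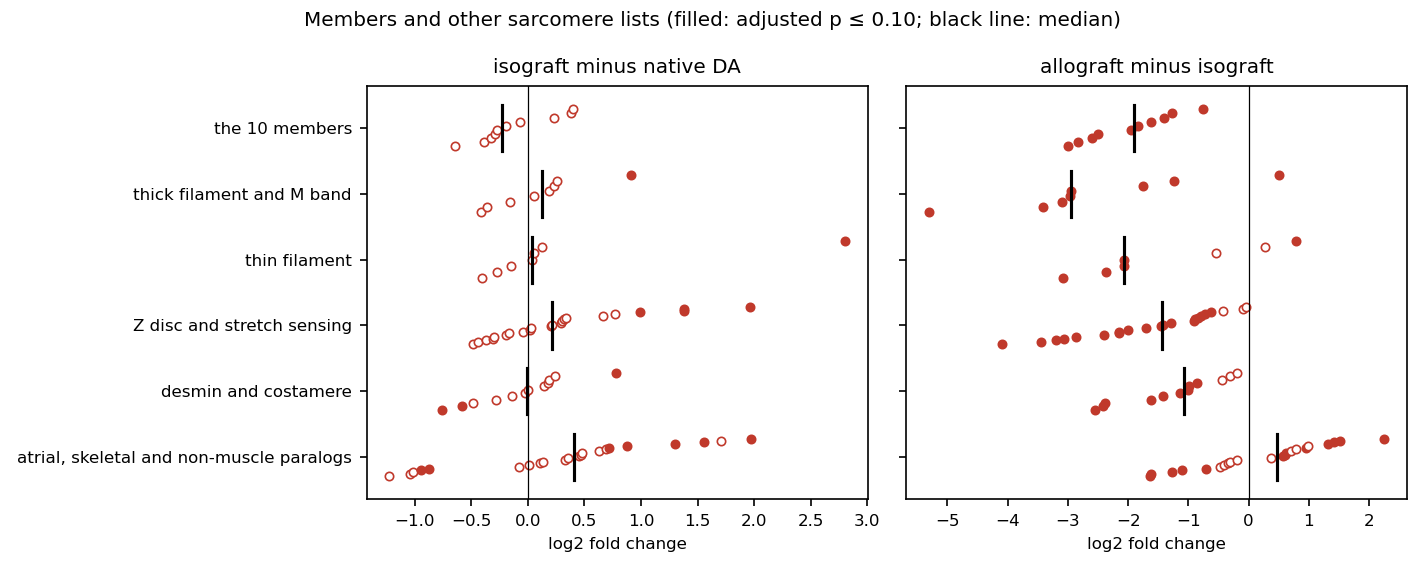
Log2 fold change of every measured gene (points, filled where the test was passed) in the 10 members and 5 other sarcomere lists, for isograft minus native DA hearts (left) and allograft minus isograft hearts (right); black lines are list medians. The members are all open in the left panel, with a median of -0.23, and all filled and below 0 in the right panel, with a median of -1.90.

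The genes whose signal followed the mean of the 10 members most closely over the 18 hearts were Tesc (Pearson's r 0.990), Chchd10 (0.988), Pam (0.987), Smpx (0.987) and Atp2a2 (0.986), the calcium pump of the sarcoplasmic reticulum. These values mostly restate the gap between allografts and the other hearts. Over the 13 hearts that were not rejecting, the closest were Cryab (0.957), Psma5 (0.955), Cox6a2 (0.953), Myoz2 (0.951) and Cox6c (0.949). Among the members themselves, the 45 pairs had r from 0.83 to 0.987 (median 0.954) over 18 hearts and from -0.413 to 0.992 (median 0.444) over the 13. Points in both cases share array scaling and group, so no p is given.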

How the data were processed

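RNA from 18 hearts was hybridised to RAE230A arrays and from 20 PBMC samples to RAE230 2.0 arrays, 1 array per sample. The authors deposited linear intensities from the MAS5 algorithm of the array software; the software version is not given in the sources used here. MAS5 subtracts a mismatch signal, so dim probesets are noisy. Control probesets (57) were left out. Each heart array was divided by its median signal (38.3 to 50.8) and transformed to log2. Symbols came from the platform annotation, updated by gene identifier to GRCr8. Of 15866 heart probesets 12783 had 1 symbol, 312 several and 2771 none.

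All 18 hearts were fitted in limma 3.58.1 (R 4.3.3) with lmFit and eBayes, 1 mean per group and no other term, and p-values were adjusted by the Benjamini-Hochberg method over all 15866 probesets. The study's methods name analysis of variance, a 10% limit on false discoveries, present calls in 50% of either group and a 3-fold limit. Present calls were replaced here by signals that reached the array median. Native and transplanted hearts with the same label number came from the same recipient, but their deviations from the group means were hardly related (r from -0.107 to 0.148 over 9 pairs), and a recipient block is an alternative. Hearts came from separate animals within a group, and precision is limited by the number of arrays.

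All 10 members are named. Other sarcomere lists give counts and, per comparison, up to 3 genes with the largest change, and paralogs of the members, Capzb, Acta1 and Des were named besides after their values were seen. The members and lists were chosen with earlier results of these data known.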

Additional observations from a re-analysis of the deposited data

Results flagged for a closer look

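Of 68 combinations of member probeset and group, 3 had a heart far from the others by Dixon's criterion, which chance meets in about 1 of 20 groups. Tpm1 probeset 1371241_x_at measured 112.2 array medians in native BN heart A4, where the other 4 lay between 80.6 and 87.6. Myl2 probeset 1388293_at measured 0.533 in native DA heart I9, against 1.31 to 1.56 in the others. Tnnt2 probeset 1390061_at measured 0.0754 in native DA heart I11, against 0.614 to 0.717. The Myl2 and Tnnt2 probesets are the dim ones of their genes and do not represent them.

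The change from native heart to graft differed between allograft and isograft recipients for 9 genes, by the test of that difference itself (limma, adjusted p of at most 0.10). On the log2 scale the difference was -3.38 for Mybpc3, -2.72 for Ttn, -2.58 for Tnni3, -2.54 for Actn2, -1.74 for Myl3, -1.51 for Tcap, -1.37 for Myl2, -1.19 for Tnnc1 and -1.12 for Tnnt2. In each of the 9, all 5 allografts were below the native heart of the same animal. The strain of graft and native heart differs in allograft recipients alone, so strain and rejection cannot be told apart in this difference.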

How the results depend on the processing

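The alternatives were quantile normalization, the array software's scaling alone, an added offset of 0.25 array medians, other signal criteria, only the groups compared, no moderation, the mean of all probesets, a recipient block and leaving out each heart. The fit without A5 and A6 was chosen after seeing the data. No member that passed the test reversed direction. Members that did not pass could change sign: with quantile normalization their median moved from -0.23 to 0.13 for surgery and from -0.20 to 0.02 for strain. For each gene and alternative, the outcome of the test (lower, higher or not passed) was set against the main fit, without the 3-fold limit. It was unchanged in 279 of 280 cases for rejection, 280 of 280 for surgery and 270 of 270 for strain. The outcome was also unchanged in 290 of 290 for allografts against native BN hearts and 275 of 280 for the difference of within-recipient changes. The exceptions (Tnnt2, Myl2 and Tpm1) are given with the results. A further exception is the Tnnt2 difference, -0.51 with the mean of its probesets (adjusted p = 0.428). Leaving out 1 heart, the genes called at 3-fold ran from 6 to 7 for rejection, from 5 to 8 for allografts against native BN hearts, and from 5 to 6 for the difference. With the recipient as a random or fixed block, pairing the hearts of 1 animal, 10 genes were lower and 5 called against native BN hearts. For the difference 9 were lower and for surgery 0 passed, and no member changed in whether it passed. The rejection effect could be fitted with the random block alone (10 lower, 7 called). Probesets near or below the array median (the second ones of Tnnt2 and Myl2, and 2 of Tpm1) limit what can be said of those transcripts.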
